A study of Gallus gallus with 12 samples.

Results

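HD11 macrophage-like cells treated with lipopolysaccharide (LPS) were compared directly with HD11 cells treated with Se-methylselenocysteine (SeMC), with 3 libraries in each group. HD11 is a chicken cell line transformed by a retrovirus that carries v-myc, so all samples come from one dividing line rather than from separate birds. The 6 libraries are part of a series of 12, and 3 Control libraries were used to tell which treatment had moved a gene. The LPS group received 100 ng/mL LPS for 6 h and no SeMC. The SeMC group, whose label also names PBS, was seeded in medium with 100 µM SeMC 12 h before the challenge and received no LPS, and the Control group received neither agent. The groups thus differ in both the agent and the length of exposure, and these cannot be told apart. Libraries of cells given both agents were not used here, because their deposited counts are the means of LPS and SeMC, taken down to a whole number, in 16160 of 16161 genes. The question was which genes separate a macrophage activated by LPS from one exposed to the selenium compound, and which genes both treatments move alike.

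LPS is a component of the outer membrane of Gram-negative bacteria that macrophages sense through TLR4. The receptor activates the NF-κB and AP-1 transcription factors, which switch on cytokines, chemokines, antimicrobial proteins and the inhibitors that later shut the response down, while genes of the resting, phagocytic macrophage decline. SeMC is a methylated selenium-containing amino acid from plants that cells can cleave to methylselenol, and its selenium can be used for selenoproteins.

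The deposited values are raw read counts per gene. Total counts were 13451069 to 14018893 in LPS libraries, 10656332 to 11531551 in SeMC libraries and 14972385 to 17024392 in Control libraries, so depth did not overlap between the groups. A count above 0 was found for 15426 to 15482 genes in LPS libraries and for 14972 to 15080 genes in SeMC libraries. All 12 macrophage markers checked, among them CSF1R, SPI1 and MPEG1, had counts in every group, and their summed level was 4450 to 4525 CPM in LPS, 4557 to 5075 CPM in SeMC and 5329 to 5615 CPM in Control libraries. Of the markers of other cell types, CD3E of T cells and PAX5 of B cells averaged 0.20 and 0.10 CPM in LPS, had 0 reads in SeMC and averaged 0.36 and 0.085 CPM in Control libraries. Other markers of these types had more reads. In LPS, SeMC and Control libraries, in this order, CD28 of T cells averaged 49.7, 52.9 and 54.9 CPM. TNFRSF13C of B cells averaged 31.3, 35.8 and 36.4 CPM in the same order. COL1A1 of fibroblasts averaged 11.7, 15.0 and 9.14 CPM and was called higher in SeMC than in Control. The 2 thrombocyte markers in the table, SELP and ITGA2B, summed to 17.1 to 20.3 CPM in LPS, 33.9 to 36.2 CPM in SeMC and 32.5 to 38.3 CPM in Control libraries, and both were called lower in LPS than in SeMC. HBBA, a β-globin gene, averaged 0.28 CPM in LPS, 1.85 CPM in SeMC and 0.54 CPM in Control and was called lower in LPS, and KDR, an endothelial marker, averaged 2.06 CPM in LPS, 0.96 CPM in SeMC and 2.37 CPM in Control and was called higher. The part of other cell types in the results was not tested. CPM, the depth-scaled read count, was computed on library totals adjusted by the TMM method. Reads on ribosomal RNA genes made up 1.88% to 1.91% of counts in LPS, 1.23% to 1.29% in SeMC and 1.93% to 2.30% in Control libraries. LPS replicate 1 stood apart in a set of genes. Of 10413 genes averaging above 5 CPM, 35 were more than 2-fold above the mean of the other LPS libraries, which were within 1.5-fold of each other, against at most 4 genes above and 8 below in any other library. Among the 35 were DST, SYNE2, AKAP9, VPS13A, CEP290, CENPE and MKI67, which all encode very large proteins. Since cells were harvested in bulk, fewer cells with a transcript and less transcript per cell cannot be told apart.

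Each comparison was tested on its 6 libraries by the quasi-likelihood test of edgeR, with p-values adjusted over all tested genes by the Benjamini-Hochberg method and given as the edgeR adjusted p. A gene was called at an adjusted p under 0.05 and a fold change above 1.5. Nothing in the sources states that the replicates were separate cultures, so the p-values measure the spread between these samples, which may be technical. Between LPS and SeMC, 2971 of 12979 tested genes were called (22.9%). Of these, 1349 were higher in LPS (10.4% of those tested) and 1622 were lower (12.5%). The LPS and SeMC values did not overlap in 2910 of the 2971 genes, against 7974 of all 12979 tested. More than 4-fold apart were 227 genes that were higher and 352 genes that were lower in LPS, and more than 16-fold apart were 47 and 72 genes in the same order. The comparison of LPS with Control called 1567 of 13008 genes (12%), 6.13% higher and 5.92% lower. That of SeMC with Control called 1850 of 13146 genes (14.1%), 8.5% higher and 5.58% lower. Without LPS replicate 1, 1350 genes were higher and 1725 lower in LPS than in SeMC, and 1236 and 1437 of these were genes also called with all libraries.

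Genes are ranked here among called genes that averaged 100 or more counts over the 6 libraries, with a gene symbol other than a LOC identifier and no overlap between the groups. Among those higher in LPS, the first 12 included the cytokine and chemokine genes IL1B and CCL5. PIGR, CXCL13L2 and CFD had too few counts for this ranking, had 0 reads in SeMC libraries and are given as lower bounds with their lists. CCL5, a chemokine that attracts T cells and monocytes, is at chromosome 19, 918950 to 920723, on the GRCg7b genome. It had 40.5, 45.9 and 42.5 CPM in LPS libraries, against 0.170, 0.362 and 0 CPM in SeMC libraries and 0.531, 0.262 and 0.408 CPM in Control libraries. The SeMC values rest on 6 reads in all, and the ratio of summed counts, scaled for library size, was 247 with an exact 95% interval of 113 to 673 for counting error. IL1B, which encodes the fever-inducing cytokine IL-1β, is at chromosome 22, 4457394 to 4459147. It had 930, 1023 and 937 CPM in LPS libraries, against 12.1, 10.6 and 10.7 CPM in SeMC libraries, and 25.7, 20.6 and 28.1 CPM in Control libraries. Its SeMC values were below all Control values and its LPS values far above them. The log2 fold change of IL1B between LPS and SeMC was 6.45 ± 0.08 (SE, edgeR adjusted p = 3.30e-15).

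IL13RA2, in mammals a decoy receptor for IL-13, had 163, 167 and 167 CPM in LPS libraries, against 0.933, 1.90 and 1.64 CPM in SeMC libraries. AVD, which encodes avidin, the biotin-binding protein of egg white, had 600, 431 and 535 CPM in LPS libraries, against 4.07, 5.25 and 5.71 CPM in SeMC libraries. The log2 fold changes were 6.82 ± 0.12 for IL13RA2 and 6.72 ± 0.14 for AVD (SE, edgeR adjusted p = 1.06e-13 and 5.02e-13). The SeMC values of both genes lay near or within the Control values, which were 2.06 to 2.62 CPM for IL13RA2 and 4.52 to 6.00 CPM for AVD. The other genes of the 12 were FCMAR, TGM4 (a transglutaminase), PI3 (a protease inhibitor), CMBL (a hydrolase), MMP27 (a matrix metalloproteinase), IL2RA (a subunit of the IL-2 receptor), MLKL (in mammals the executor of necroptosis) and LIPG (endothelial lipase). FCMAR rested on 2 reads in SeMC libraries, and its ratio was 271 with an interval of 74.8 to 2246. The log2 fold changes of the 7 others ran from 4.43 for LIPG to 6.28 for TGM4.

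By the same rule, the 12 genes with the largest difference among those lower in LPS were all lowered by LPS. None of the 12 was called between SeMC and Control. The rule leaves out many larger differences. In all, 72 called genes were more than 16-fold lower in LPS than in SeMC, while C1QC, second in the ranking, was 14.6-fold lower. Against Control, 4 genes were more than 16-fold lower with LPS and 95 more than 16-fold higher with SeMC. CEND1, raised by SeMC alone, had a log2 fold change of -2.43, close behind DNASE2B, the last of the 12, at -2.44. Among listed genes with fewer counts, BLVRA had a larger log2 difference, at -5.47, and was called in SeMC against Control and not tested in LPS against Control. The genes of the 3 chains of C1q, the recognition molecule of the classical complement pathway, led the list. They lie next to each other on chromosome 21, from 6056646 (C1QB) to 6064372 (C1QA). C1QB had 9.35, 8.78 and 8.50 CPM in LPS libraries, against 180, 192 and 178 CPM in SeMC libraries and 184, 174 and 175 CPM in Control libraries. C1QA had 12.3, 17.2 and 14.0 CPM in LPS libraries, against 198, 199 and 193 CPM in SeMC libraries. The log2 fold changes of LPS over SeMC were -4.35 ± 0.07 for C1QB, -3.86 ± 0.10 for C1QC and -3.74 ± 0.09 for C1QA (SE, edgeR adjusted p at most 5.66e-12). CSF1R, the receptor that keeps macrophages alive and differentiated, had 49.9, 53.5 and 56.8 CPM in LPS libraries, against 347, 265 and 343 CPM in SeMC libraries. TREM2, a receptor for lipids and dying cells, had 3.48, 1.48 and 1.66 CPM in LPS libraries, against 21.5, 21.3 and 23.5 CPM in SeMC libraries. Every LPS value of these genes was below every SeMC value, as the rule of the ranking required. The others were XDH (xanthine oxidoreductase), SHTN1, CDH23, SLA (a Src-like adaptor), DPEP2 (a dipeptidase), VSIR (an inhibitory checkpoint ligand) and DNASE2B (an acid DNase), with log2 fold changes from -3.13 to -2.44. CDH23 and VSIR overlap on chromosome 6 and the strand setting of the counting was not given in the sources used here, so their reads may not be separable. TREM2 overlaps TREMB1, SLA overlaps TG and SHTN1 overlaps ENO4 in the same way. DNASE2B and, among the genes higher in LPS, IL1B, IL13RA2 and FCMAR each overlap a gene with a LOC identifier.

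**Figure D1:**
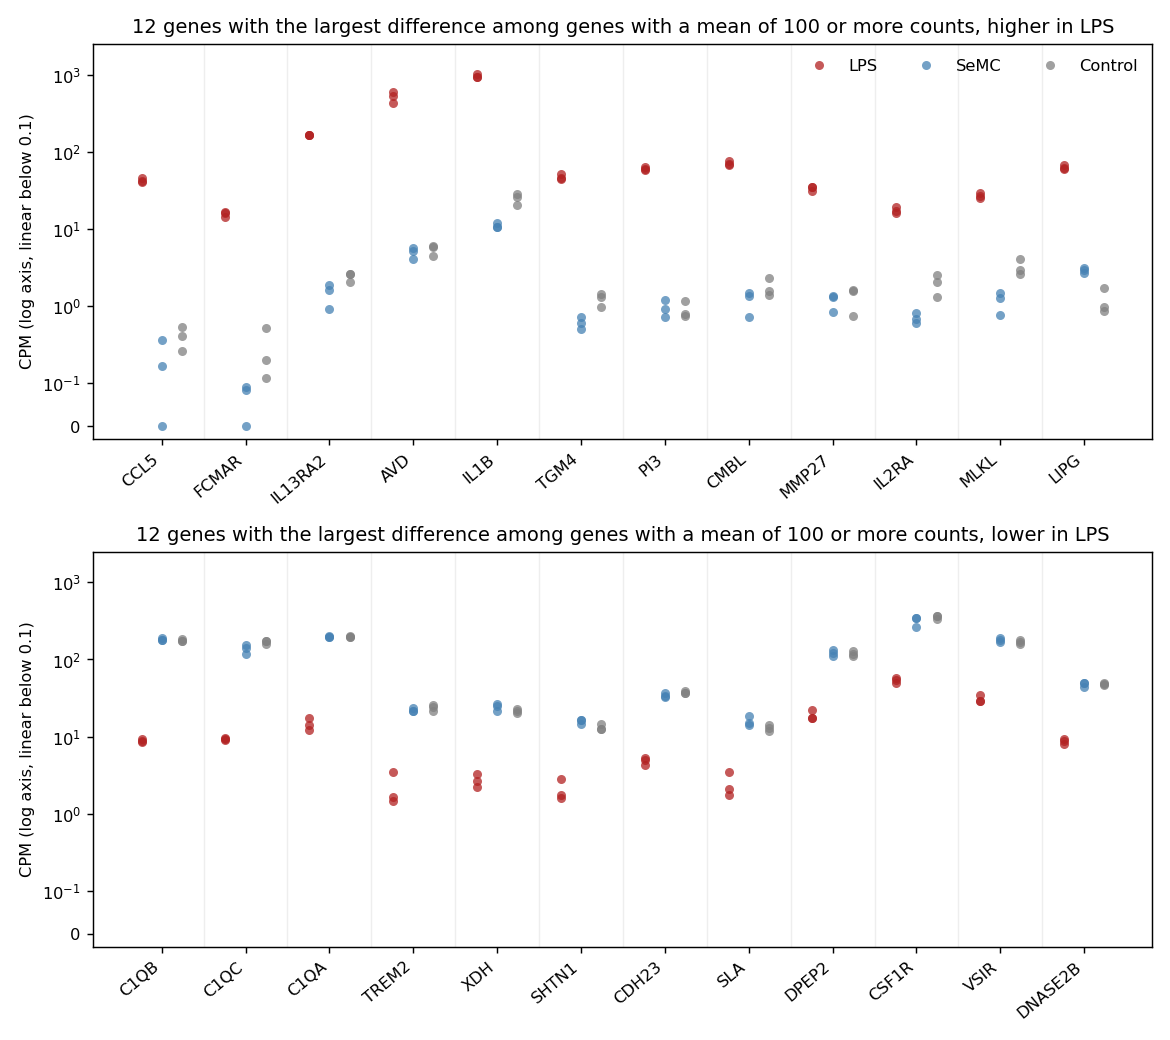
Level in CPM (log axis, linear below 0.1) of the 12 genes with the largest difference in each direction among genes averaging 100 or more counts, with 1 point per library for LPS (red), SeMC (blue) and Control (grey). In the upper panel the LPS points of IL1B lie at 930 to 1023 CPM, and in the lower panel the SeMC and Control points lie together, with C1QB at 174 to 192 CPM and its LPS points at 8.50 to 9.35 CPM.

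The call of each gene against Control was used to tell which treatment had moved it. The comparisons of LPS and of SeMC with Control share the 3 Control libraries, so their values are given side by side. Of the 2971 genes, 962 (32.4%) were called in LPS against Control only, 1098 (37.0%) in SeMC against Control only, 93 in both with opposite directions, 38 in both with the same direction, and 780 (26.3%) in neither. Of the 1349 genes higher in LPS, 525 were called in LPS against Control only, 333 in SeMC against Control only and 417 in neither. Of the 1622 genes lower in LPS, 765 were called in SeMC against Control only, 437 in LPS against Control only and 363 in neither. Without LPS replicate 1 the counts were 1004 for LPS only, 1043 for SeMC only, 95 for opposite, 40 for the same direction and 893 for neither. Here and below, moved, raised or lowered by LPS alone or by SeMC alone means called against Control with that treatment only. With the other treatment the gene missed a threshold or was not tested, which does not show that it was unmoved. Genes moved by SeMC alone were counted less. The median of their mean count was 35.0 where they were lower in LPS and 44.5 where they were higher, against 240 and 530 for genes moved by LPS alone, and a mean of at least 100 counts was reached by 163 of 765 and 77 of 333. Genes with only a LOC identifier made up 44.3% and 50.5% of them, against 12.7% of genes that were not called. In 259 of the 765 genes the counts in LPS and Control libraries were too low to be tested.

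**Figure D2:**
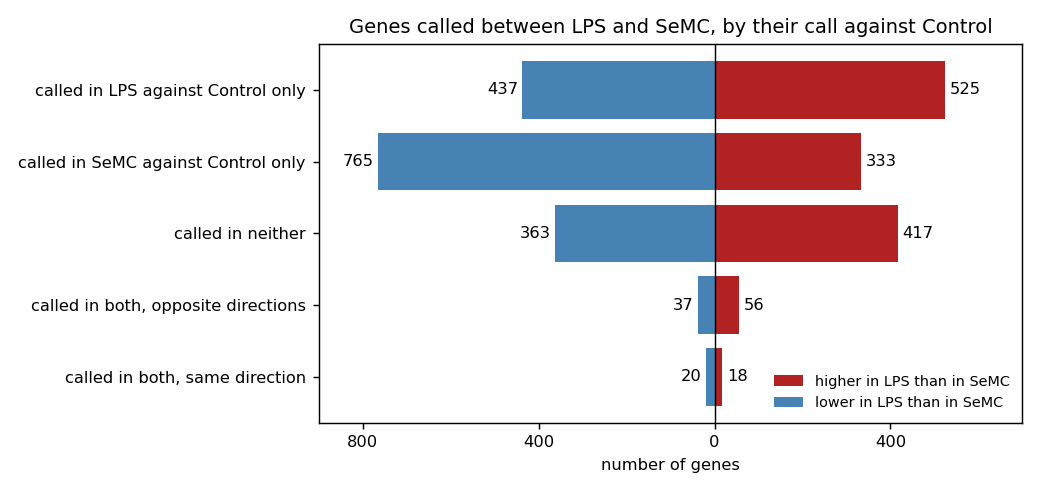
Number of genes called between LPS and SeMC, split by their call against Control, with genes higher in LPS to the right (red) and lower in LPS to the left (blue). The longest bar is that of genes called in SeMC against Control only and lower in LPS, with 765 genes, followed by genes called in LPS against Control only and higher in LPS, with 525 genes.

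Cytokine, chemokine and antimicrobial genes were mostly higher in LPS than in SeMC. The share called over all tested genes was 10.4% higher and 12.5% lower in LPS, with a median log2 fold change of -0.01. Without LPS replicate 1, no list's count in either direction changed by more than 2 genes. Of the 20 tested cytokines and chemokines, 11 were higher and 2 lower in LPS (median log2 fold change 0.81), and of 18 defence proteins 13 were higher and 1 lower (median 1.70). IL8L2, which encodes a chemokine related to mammalian IL-8, had 409, 441 and 392 CPM in LPS libraries, against 20.2, 20.7 and 23.5 CPM in SeMC libraries. IL10, an anti-inflammatory cytokine, had 7.42, 9.89 and 9.11 CPM in LPS libraries, against 1.70, 2.17 and 1.56 CPM in SeMC libraries and 4.71, 5.57 and 4.83 CPM in Control libraries. IL10 therefore moved in opposite directions with the 2 treatments, as IL1B did. CXCL13L2 had 0 reads in SeMC libraries and was at least 60.5-fold higher in LPS against a floor of 3 counts over the group. TNFSF13B and VEGFA were the 2 members that were lower in LPS, at 3.02 and 5.25 CPM, against 5.21 and 9.29 CPM in SeMC.

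LECT2, a chemotactic protein for leukocytes, was the most abundant defence gene at 6352, 6546 and 6325 CPM in LPS libraries, against 628, 644 and 637 CPM in SeMC libraries. LYZ, lysozyme, averaged 2074 CPM in LPS and 246 CPM in SeMC. The groups did not overlap in either gene, and the log2 fold changes were 3.35 ± 0.06 for LECT2 and 3.10 ± 0.06 for LYZ (SE, edgeR adjusted p = 9.63e-14 and 2.86e-13). The 7 avian β-defensin genes called, with DEFB4A counted as AvBD2, were all higher in LPS, from a log2 fold change of 0.87 for AvBD7 to 2.20 for AvBD3. AvBD3, AvBD6 and the cathelicidin CATHB1 were called higher in LPS and lower in SeMC than in Control. TF, the iron carrier transferrin (ovotransferrin in birds), was the only member that was lower, at 224 CPM in LPS and 393 CPM in SeMC.

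Of 35 tested genes of the NF-κB pathway and its feedback inhibitors, 22 were higher and 2 lower in LPS (median log2 fold change 0.77), and 21 of the 24 called genes were moved by LPS alone. NFKBIA, which encodes the inhibitor IκBα, had 286, 312 and 310 CPM in LPS libraries, against 67.9, 70.5 and 71.8 CPM in SeMC libraries (log2 fold change 2.13 ± 0.06 SE, edgeR adjusted p = 4.51e-12). Genes such as NFKBIZ (2.09), TRAF2 (1.85), IRAK2 (1.62) and ZC3H12A (1.14) were higher in LPS on the same log2 scale. NFKB2, which encodes the p100 precursor of the non-canonical pathway at chromosome 6, 17699955 to 17708379, went the other way. It had 158, 147 and 161 CPM in LPS libraries, against 332, 377 and 351 CPM in SeMC libraries and 141, 133 and 140 CPM in Control libraries. LPS values were close to those of Control and every SeMC value was more than 2-fold above them. The log2 fold change between LPS and SeMC was -1.17 ± 0.06 (SE, edgeR adjusted p = 2.70e-09), and NFKB2 overlaps MIR3537 and PSD. DUSP4, a MAP kinase phosphatase, was the other lower member, at 306 CPM in LPS and 530 CPM in SeMC.

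Of 25 tested genes of nitric oxide, arginine and prostaglandin metabolism, 9 were higher and 2 lower in LPS, and the median log2 fold change was -0.08. NOS2, the inducible nitric oxide synthase, had 215, 204 and 215 CPM in LPS libraries, against 19.4, 20.7 and 20.8 CPM in SeMC libraries. PTGS2, the inducible cyclooxygenase, had 37.1, 34.7 and 35.1 CPM in LPS libraries, against 2.80, 3.90 and 2.94 CPM in SeMC libraries. Both genes were more than 8-fold apart without overlap, with log2 fold changes of 3.40 ± 0.06 for NOS2 and 3.49 ± 0.13 for PTGS2 (SE, edgeR adjusted p = 1.06e-13 and 1.03e-10). ASS1, which recycles citrulline to arginine, and TBXAS1, thromboxane synthase, were lower in LPS, with log2 fold changes of -0.73 and -1.43.

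Antigen presentation and checkpoint genes were higher in LPS in 10 of 26 tested cases and lower in 1. CD274, which encodes the checkpoint ligand PD-L1, had 185, 164 and 178 CPM in LPS libraries, against 14.2, 14.4 and 11.4 CPM in SeMC libraries (log2 fold change 3.74 ± 0.09 SE, edgeR adjusted p = 1.41e-12). CIITA, the regulator of MHC class II genes, averaged 34.6 CPM in LPS and 10.8 CPM in SeMC, and CD74, the invariant chain, 2027 CPM in LPS and 1072 CPM in SeMC. VSIR was the member that was lower.

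Complement and phagocytic, lysosomal and interferon-response genes were among the lists with more called genes lower than higher in LPS. Lower in LPS were 12 of 34 tested complement and phagocytic genes, 11 of 46 lysosomal genes and 10 of 35 interferon-response genes, and higher were 7, 2 and 4. The median log2 fold changes were -0.07, -0.07 and -0.17. LRP1, a large endocytic receptor, had 1961, 1816 and 1763 CPM in LPS libraries, against 3311, 3754 and 3949 CPM in SeMC libraries. MERTK, which clears dying cells, and the scavenger receptors STAB1 and CD36 were also lower in LPS, with log2 fold changes of -1.23, -0.89 and -0.90. The higher members included PIGR, the polymeric immunoglobulin receptor, and CFD, complement factor D, which had 0 reads in SeMC libraries and were at least 167-fold and 49.8-fold higher in LPS against the floor. Among lysosomal genes, the proteases CTSB, CTSC, CTSH and CTSZ had log2 fold changes of -0.83, -0.89, -0.81 and -0.89, while the membrane protein CD63 was higher at 1.57. The interferon-induced genes GVINP1, IFIT5, SAMD9L, OASL and CMPK2 were lower in LPS, from -2.19 to -1.50. The higher members of that list included IFI27L2 (0.81) and IRF1 (0.96), and MX1, RSAD2 and EIF2AK2 were not called. IFIT5 and SAMD9L fell below Control with both treatments, more so with LPS. IFIT5 had 1.24, 1.25 and 0.904 CPM in LPS libraries, against 5.68, 5.71 and 4.33 CPM in SeMC libraries and 9.37 to 11.0 CPM in Control libraries.

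Of 22 tested pattern recognition receptors, 3 were higher and 5 lower in LPS, against 10.4% higher and 12.5% lower over all tested genes. TLR2A, a receptor for bacterial lipoproteins, had 19.9, 24.1 and 21.5 CPM in LPS libraries, against 65.0, 64.0 and 67.3 CPM in SeMC libraries, while TLR4, the LPS receptor, had 72.1, 72.1 and 81.7 CPM in LPS libraries, against 53.3, 53.4 and 54.2 CPM in SeMC libraries, and missed the fold minimum (log2 fold change 0.51).

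Transcription factors of the myeloid lineage were split, with 14 of 49 tested higher and 11 lower in LPS. IRF8, which directs macrophage differentiation, had 285, 295 and 287 CPM in LPS libraries, against 755, 773 and 753 CPM in SeMC libraries (log2 fold change -1.37 ± 0.05 SE, edgeR adjusted p = 4.22e-11). MEF2C, MAF, KLF4 and KLF2 were lower in LPS as well (-2.19, -1.58, -1.45 and -1.26), while BATF3 (3.20), ETS2 (1.31), CEBPB (0.98) and SPI1 (0.81) were higher. FOS, a subunit of AP-1, was raised by SeMC alone, with 89.9, 93.4 and 75.7 CPM in LPS libraries, against 174, 184 and 178 CPM in SeMC libraries and 96.2 to 117 CPM in Control libraries. JUN, its partner, was 90.1 CPM in LPS, 54.9 CPM in SeMC and 43.1 CPM in Control, and was called higher in LPS.

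**Figure D3:**
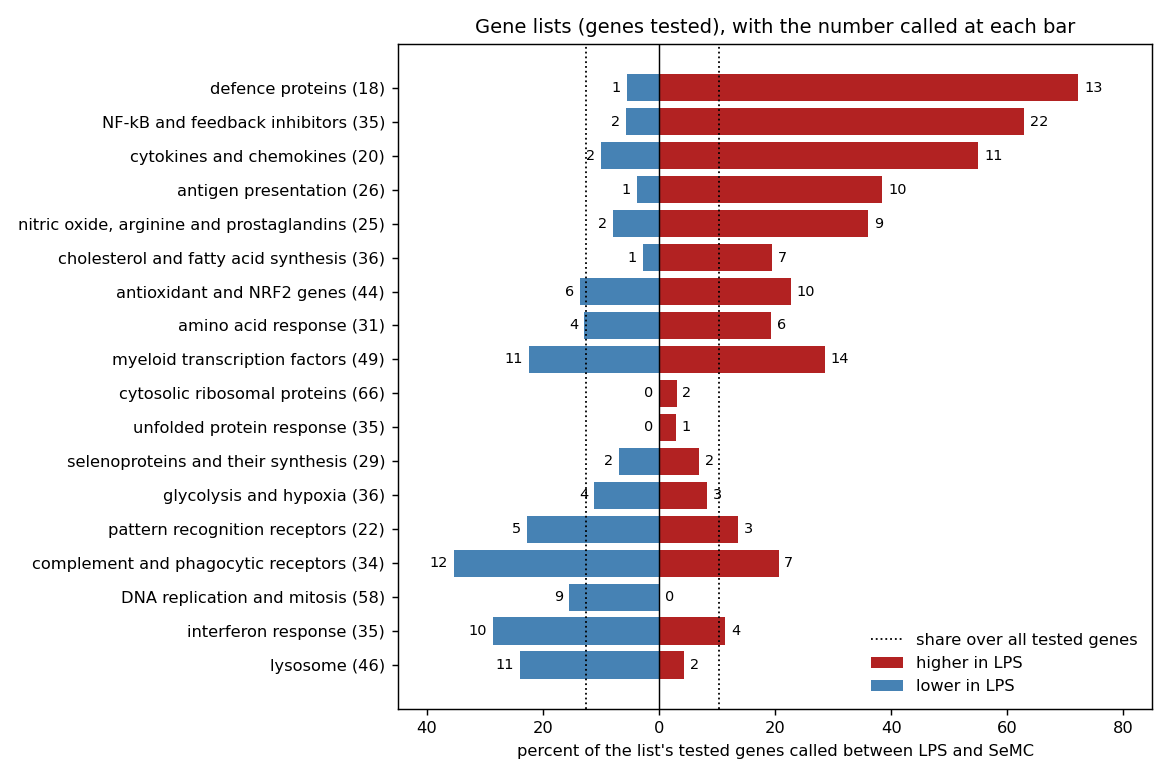
Percent of the tested genes of each list (number tested in brackets) that were called higher (red, right) or lower (blue, left) in LPS than in SeMC, with the number of genes at each bar. The dotted lines mark 10.4% and 12.5%, the shares over all tested genes. Defence proteins (13 of 18) and NF-κB genes (22 of 35) reach furthest to the right.

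Among metabolic and stress lists, the number called ran from 1 of 35 genes of the unfolded protein response to 16 of 44 antioxidant genes, against 22.9% over all genes. Of 29 tested selenoproteins and genes of selenium handling, 4 were called. Thioredoxin reductase TXNRD1 had 77.6, 76.3 and 77.2 CPM in LPS libraries, against 131, 133 and 122 CPM in SeMC libraries and 119 to 121 CPM in Control libraries, so the difference lay with LPS. SCLY, the lyase that frees selenium from selenocysteine, was also lower in LPS (log2 fold change -0.64), and SELENOI and MIEN1 were higher (0.65 and 0.67). GPX4, the lipid-peroxide reductase, had 127, 149 and 146 CPM in LPS libraries, against 136, 131 and 142 CPM in SeMC libraries, and was not called. Of the 44 antioxidant genes 10 were higher and 6 lower in LPS. Ferritin heavy chain FTH1 averaged 5058 CPM in LPS and 2093 CPM in SeMC. BLVRA, biliverdin reductase, had 0.232, 0.0738 and 0.452 CPM in LPS libraries, against 6.78, 17.0 and 11.6 CPM in SeMC libraries and 0.116 to 0.133 CPM in Control libraries, and was raised by SeMC alone.

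Amino acid and sterol genes differed in their calls against Control. Of 31 tested genes of the amino acid response, 6 were higher and 4 lower in LPS than in SeMC (32.3% called, against 22.9% over all genes). Of those called, 5 were moved by LPS alone and 4 by SeMC alone. Cystathionine γ-lyase CTH, the glutathione-degrading enzyme CHAC1 and the glycine transporter SLC6A9 were raised by SeMC alone and were lower in LPS, with log2 fold changes of -0.80, -0.83 and -3.29. SLC7A3, a carrier of cationic amino acids, had 623, 627 and 590 CPM in LPS libraries, against 123, 106 and 130 CPM in SeMC libraries. Of 36 tested genes of cholesterol and fatty acid synthesis and transport, 7 were higher and 1 lower in LPS. The share called, 22.2%, was near the 22.9% over all genes. Of those called, 6 were called in neither comparison with Control, 1 was moved by LPS alone and 1 in opposite directions. STARD4, a carrier of cholesterol between membranes, had 215, 211 and 231 CPM in LPS libraries, against 110, 98.6 and 112 CPM in SeMC libraries and 149 to 168 CPM in Control libraries. It was called between the treatments (log2 fold change 1.06 ± 0.06 SE, edgeR adjusted p = 1.08e-08) but missed the fold minimum against Control, at 0.48 for LPS and -0.56 for SeMC. ABCA1, which exports cholesterol, was the lower member and moved in opposite directions, with 59.2, 56.4 and 62.8 CPM in LPS libraries, against 182, 180 and 203 CPM in SeMC libraries and 120 to 129 CPM in Control libraries.

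The 93 genes moved in opposite directions comprised 56 that were higher in LPS and lower in SeMC than in Control, and 37 with the reverse. Besides IL1B and IL10, the first set held IL2RA, MLKL and MRGPRH. MRGPRH, an orphan G protein-coupled receptor, had 740, 771 and 764 CPM in LPS libraries, against 56.3, 44.8 and 54.3 CPM in SeMC libraries and 83.8 to 95.6 CPM in Control libraries. The co-stimulatory ligand ICOSLG had 81.9, 80.3 and 97.5 CPM in LPS libraries, against 17.0, 14.3 and 16.8 CPM in SeMC libraries and 27.0 to 32.5 CPM in Control libraries. SOCS1, an inhibitor of cytokine signalling, averaged 7.66 CPM in LPS, 2.79 CPM in SeMC and 4.67 CPM in Control. The second set held ABCA1 and the glutathione transferase GSTT1 among the listed genes. In the 780 genes called in neither comparison with Control, the 2 treatments lay on opposite sides of Control in 717, as STARD4 did, a pattern that the definition of this set favours. PRPSAP2 and ARMC2 were further genes of this set, with log2 fold changes of -1.03 and 1.02.

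Some genes were called in the same direction against Control with both treatments. LPS against Control called 1567 genes and SeMC against Control 1850. Of the 298 genes called in both comparisons with Control, 205 moved the same way, 91 higher and 114 lower. The shared Control libraries can by themselves make the directions agree. Of the 205, 167 were not called between LPS and SeMC (68 higher and 99 lower than Control), which does not show that they were equal. The 95% interval of the difference lay within 1.5-fold in 43 of them, 26 higher and 17 lower. SOCS1L, a SOCS1-like gene, had 10.8, 11.5 and 9.33 CPM in LPS libraries, against 9.58, 9.15 and 11.9 CPM in SeMC libraries and 5.05 to 6.11 CPM in Control libraries. Its log2 fold change over Control was 0.96 with LPS and 0.90 with SeMC, and 0.07 between the treatments (interval -0.24 to 0.38). MAFF, a small Maf transcription factor, had 53.9, 56.4 and 58.5 CPM in LPS libraries, against 45.7, 43.8 and 50.4 CPM in SeMC libraries and 23.5 to 33.4 CPM in Control libraries. The treatments did not overlap in MAFF, but its log2 difference of 0.29 (edgeR adjusted p = 0.00615) missed the fold minimum. BLB2, an MHC class II β chain, had 494, 578 and 495 CPM in LPS libraries, against 501, 551 and 444 CPM in SeMC libraries and 273 to 340 CPM in Control libraries. The 2 treatments overlapped in BLB2, with an interval of the difference of -0.08 to 0.26, and both were above Control.

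Among genes lowered by both, CPS1, the first enzyme of the urea cycle, had 8.81, 8.63 and 7.83 CPM in LPS libraries, against 8.31, 9.87 and 8.22 CPM in SeMC libraries and 14.0 to 16.6 CPM in Control libraries. BCL2A1, an anti-apoptotic protein, TIMD4, a receptor for phosphatidylserine on dying cells, and SMIM18 were also lower than Control with both treatments, and their log2 difference between LPS and SeMC was between -0.08 and 0.25. P2RY12, a purinergic receptor, fell by 1.02 with LPS and by 0.68 with SeMC on the log2 scale. CENPF, a kinetochore protein, depended on LPS replicate 1. It had 85.6, 14.3 and 23.3 CPM in LPS libraries, against 89.8, 67.1 and 79.7 CPM in SeMC libraries. With all libraries its log2 fold change was -0.93 and it was not called (edgeR adjusted p = 0.0815). Without that library it was -2.04 and called (edgeR adjusted p = 1.68e-06).

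The 38 genes moved the same way by unequal amounts comprised 21 with the larger change in LPS and 17 with the larger change in SeMC. LIPG had 59.5, 61.7 and 67.0 CPM in LPS libraries, against 2.97, 3.17 and 2.68 CPM in SeMC libraries and 0.863 to 1.70 CPM in Control libraries. IL1R2, a decoy receptor for IL-1, had 55.5, 55.0 and 56.7 CPM in LPS libraries, against 13.4, 12.3 and 13.4 CPM in SeMC libraries and 6.55 to 8.38 CPM in Control libraries. The vasoactive peptide gene ADM and the itaconate-producing enzyme ACOD1 showed the same order, with 22.5 and 3.51 CPM in LPS, 2.24 and 1.46 CPM in SeMC, and 1.01 and 0.653 CPM in Control.

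**Figure D4:**
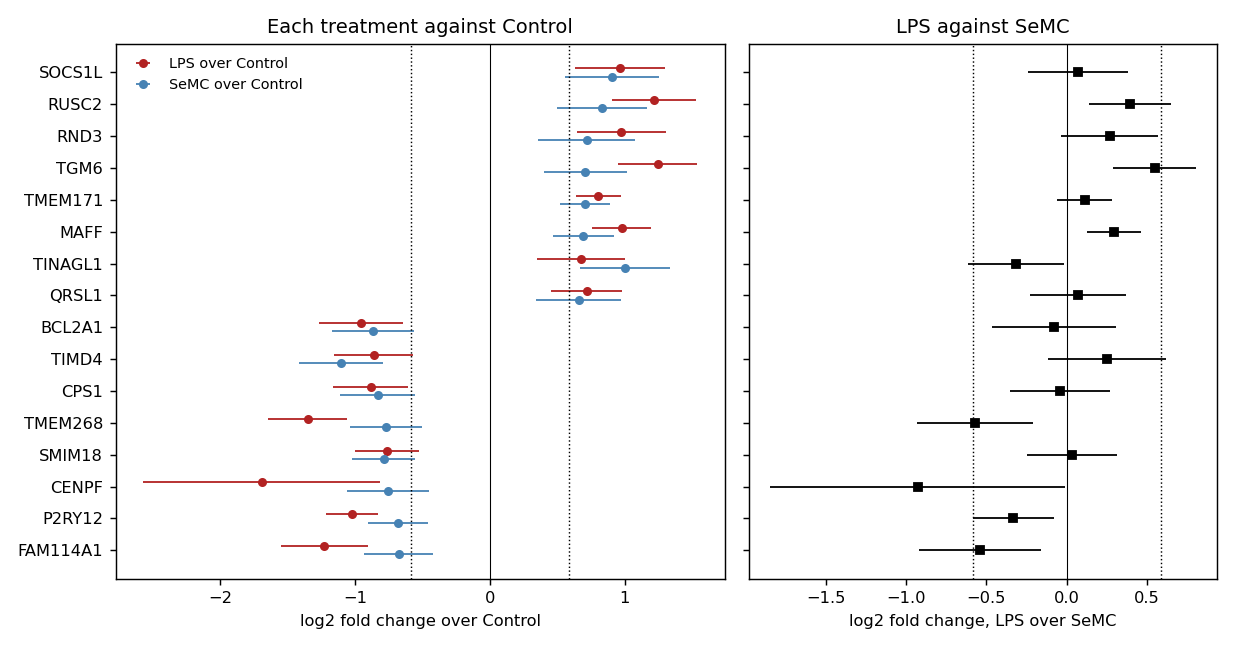
Log2 fold changes with 95% intervals for the 16 named genes among those moved in the same direction and not called between the treatments. Values against Control are on the left (LPS red, SeMC blue) and those between LPS and SeMC on the right (black). Dotted lines mark a fold change of 1.5. SOCS1L lies at 0.07 between the treatments, and CENPF has the widest interval, from -1.85 to -0.01.

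Of 58 tested genes of DNA replication and mitosis 9 were called (15.5%), all lower in LPS, near the 12.5% called lower over all tested genes. Of the 58 genes, 10 had a positive log2 fold change between LPS and SeMC, with a median of -0.24. Against Control, 6 of the 58 had a positive log2 fold change with LPS (median -0.32) and 21 with SeMC (median -0.06). MKI67, the proliferation marker, had 271, 88.0 and 120 CPM in LPS libraries, against 340, 293 and 338 CPM in SeMC libraries, and was called lower (edgeR adjusted p = 0.00776). Its log2 fold change was -1.61 without LPS replicate 1, and that of CENPE, a mitotic motor protein, was -1.08 with all libraries and -2.09 without it. TOP2A, which untangles DNA in dividing cells, had 608, 616 and 602 CPM in LPS libraries, against 648, 634 and 667 CPM in SeMC libraries, and was not called. Of 66 genes of cytosolic ribosomal proteins 63 had a positive log2 fold change (median 0.24) and 2 were called. RPL22 was the larger of these, with 106, 85.1 and 92.6 CPM in LPS libraries, against 39.5, 29.2 and 38.4 CPM in SeMC libraries and 91.1 to 144 CPM in Control libraries. DST, a cytoskeletal linker, was named among the genes moved by SeMC alone, but its 116 CPM in LPS replicate 1 stood against 26.0 and 32.0 CPM in the other LPS libraries, and its log2 fold change of 1.66 became 0.67 without that library.

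Chromosomes 31 and 33 had the highest shares of genes higher in LPS, and the mitochondrial genome the highest share of genes lower in LPS, among chromosomes with 25 or more tested genes, which was noticed after the values were seen. On chromosome 31, 36 of 102 tested genes (35.3%) were higher in LPS than in SeMC, and on chromosome 33, 53 of 129 (41.1%), against 10.4% over all genes. The share lower in LPS, 10.8% on chromosome 31 and 10.1% on chromosome 33, was near the 12.5% over all genes. Of these genes 87 and 125 have only a LOC identifier, and the named genes of chromosome 31 include chicken Ig-like receptors (CHIR) and those of chromosome 33 include olfactory receptors (OR14J1L). Members of such families can share reads, so the values of single genes are uncertain. Where the mean count was 100 or more, 14 of 36 on chromosome 31 and 18 of 36 on chromosome 33 were higher in LPS, against 791 of 9763 over all chromosomes. Against Control, LPS raised 20 and lowered 3 genes of chromosome 31, and SeMC raised 17 and lowered 22. On chromosome 33 LPS raised 14 and lowered 3, and SeMC raised 22 and lowered 36. Of 25 tested mitochondrial genes, 3 were higher (12.0%) and 7 lower (28.0%) in LPS than in SeMC, and SeMC against Control raised 7 and lowered 6. Of the 15 mitochondrial genes with a mean count of 100 or more, 2 were higher and 0 lower in LPS than in SeMC. The 7 lower genes were therefore all among those with fewer counts, and the median log2 fold change of the 25 genes was 0.28. Of 10 tested tRNA genes, 7 were likewise lower in LPS than in SeMC, and 0 had a mean count of 100 or more. The tRNA genes and the lower mitochondrial genes can be the same loci. Without chromosomes 31 and 33, 1260 genes were higher and 1598 lower in LPS among 12748 tested.

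**Figure D5:**
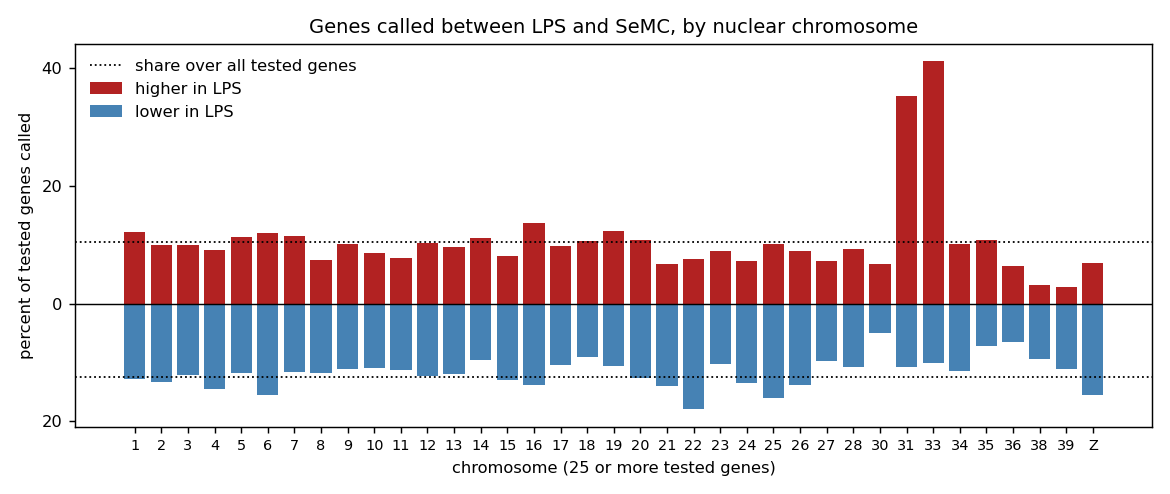
Percent of tested genes called higher (red, up) or lower (blue, down) in LPS than in SeMC on each nuclear chromosome with at least 25 tested genes. Dotted lines mark the shares over all genes, 10.4% and 12.5%, and chromosomes 31 and 33 stand out at 35.3% and 41.1% higher.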

How the data were processed

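RNA of HD11 cells was sequenced with the Illumina TruSeq kit (2 µg of RNA per the labels, a value that differs in the methods text). The authors mapped reads with HISAT2 to GRCg7b and counted them per gene with HTSeq; the deposited counts are not normalized. Versions, annotation release and strand setting were not given in the sources used here. The 3 columns of cells given both agents were not used. Counts were tested in edgeR 4.0.16 (R 4.3.3) after TMM normalization and filterByExpr with a minimum count of 10. Symbols (16154 of 16161) and coordinates came from RefSeq on GRCg7b. Members and gene lists were chosen with earlier results of these data known. The genes named are the 12 with the largest change in each direction, the leading 4 of each class and 8 moved alike in each direction, with groups that did not overlap and 100 or more counts on average, and the listed genes; 1 of them is not reported here. The chromosomes, RNA types and the set of 35 genes in LPS replicate 1 were chosen after the values were seen. Promoter sequences were not analysed here. On simulated counts with 200 genes changed 2-fold between LPS and SeMC, edgeR called 173 of them and 1 other of 13108. In the data 22.9% of tested genes were called and LPS replicate 1 stood apart. The simulation held neither feature and cannot measure errors that come from them. DESeq2 1.42.0, limma 3.58.1, other filters and thresholds, a replicate block and leaving out libraries were alternatives.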

Additional observations from a re-analysis of the deposited data

How the results depend on the processing

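The counts of called genes moved by more than 1.5 times only with the fold-change threshold. For LPS/SeMC, LPS/CTR, SeMC/CTR and genes moved alike, in this order, glmTreat against 1.5-fold gave 1620, 752, 700 and 23 genes, a fold change above 1.2 gave 5883, 3597, 4111 and 536, no minimum gave 7051, 4491, 5172 and 729, and a fold change above 2 gave 1614, 739, 1093 and 73. Genes moved by LPS alone numbered 1975 above 1.2-fold, 2266 with no minimum and 472 above 2-fold. Leaving out 1 library at a time gave 2836 to 3075 genes for LPS/SeMC, 1438 to 1667 for LPS/CTR, 1718 to 1919 for SeMC/CTR and 138 to 162 moved alike. The share higher in SeMC than in Control was 60.4% with edgeR and 47.5% with limma on quantile-normalized values, and for LPS/SeMC the share higher in LPS was 45.4% and 51.7%. DESeq2 called 2828 genes in LPS/SeMC, limma-voom 2983, and counts thinned to equal depth 2890. Replicate numbers did not pair the samples (correlation of same-numbered LPS and SeMC libraries -0.004 to 0.045), and the fit with the replicate block called 2971 genes in LPS/SeMC, 1523 in LPS/CTR, 1844 in SeMC/CTR and 145 moved alike. For the named genes, calls were tallied over the alternatives other than the fold-change thresholds, glmTreat and thinned counts. In this tally 665 left the call as it was. The other 11 made a call of a gene that had been named as moved alike (TMEM268, CENPF, FAM114A1 and TGM6). A fold change above 1.2, outside the tally, also makes a call of RUSC2, MAFF and P2RY12 between LPS and SeMC. Genes below the count filter could not be tested at this depth.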

Other observations

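Classes of RNA other than mRNA also differed between the treatments, and they were looked at after the values had been seen. Of 22 tested miRNA genes, 15 (68.2%) were lower in LPS than in SeMC, against 12.5% of all tested genes (median log2 fold change -1.73). SeMC against Control raised 16 of 25 and lowered 1, while only 15 had enough counts to be tested in LPS against Control. Genes that pass the count filter through SeMC libraries alone can only be lower in LPS, so the filter favours this direction. A mean of 100 or more counts was reached by 1 of the 22 miRNA genes and by 0 snoRNA genes. The 52 tested snoRNA genes included 22 (42.3%) that were lower and 3 (5.77%) that were higher in LPS, and 7 of 10 tRNA genes were lower. These tRNA genes can be the same loci as the lower mitochondrial genes given above. Together the miRNA, snoRNA and tRNA loci held 0.0188% to 0.0198% of counts in LPS libraries. The shares were 0.0317% to 0.0363% in SeMC libraries and 0.0216% to 0.0225% in Control libraries. Where such a short gene lies inside or beside a longer one, reads of the longer gene cannot be told apart from its own. The number of short genes in that position was not counted. Of 978 tested lncRNA genes, 178 were higher (18.2%) and 265 lower (27.1%) in LPS, against 1153 higher (9.73%) and 1297 lower (10.9%) of 11847 protein-coding genes. Reads on mitochondrial mRNA genes made up 4.36% to 5.29% of counts in LPS, 2.98% to 4.56% in SeMC and 4.94% to 5.60% in Control libraries. The part of RNA quality in these values was not tested.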
